A study of Mus musculus with 12 samples.

Results

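The genes described here are 8 of the 23923 genes measured and were taken by name. They encode dystrophin (Dmd), its close relative utrophin (Utrn), dystroglycan (Dag1), the α-, β-, δ- and ε-sarcoglycans (Sgca, Sgcb, Sgcd and Sgce) and sarcospan (Sspn). All 8 passed the filter on low values, and none was listed at 0 in any library. In Smyd1 CKO muscle, Sgcd and Sspn rose on both scales used below and Dmd rose on 1 of them, and the other 5 genes passed the adjusted threshold on neither.

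Dystrophin is a long rod under the membrane of the muscle fiber, the sarcolemma. It holds on to actin at one end and to dystroglycan at the other, and dystroglycan in turn binds laminin outside the fiber through sugar chains on its outer subunit. The sarcoglycans span the membrane beside dystroglycan and form a subcomplex with sarcospan that steadies this link. Loss of dystrophin causes Duchenne muscular dystrophy, and loss of a muscle sarcoglycan causes a limb-girdle dystrophy. Utrophin can take the place of dystrophin in the complex and in adult fibers gathers at the neuromuscular junction.

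RNA was sequenced from the tibialis anterior, a fast muscle of the lower leg, of 12 mice at 6 weeks of age on the strain background C57BL6/J;129S1/SvImJ, with 1 library per mouse. The study states that its experiments after the first measurements of fibers in both sexes used male tissues only. The 6 controls were Myf6 cre/+; Smyd1 flox/+ and the 6 CKOs were Myf6 cre/+; Smyd1 flox/-, so both groups carried the Myf6 cre allele and, per the study's methods, a Rosa26 YFP reporter allele. SMYD1 is a lysine methyltransferase of striated muscle, and Cre made from the Myf6 locus acts in skeletal muscle fibers from late gestation. The comparison asked how the transcripts of the muscle changed without SMYD1 in the fibers, and since whole muscle was used, fewer fibers and less RNA per fiber cannot be told apart.

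The deposited values were FPKM, fragment counts normalized to transcript length and to the mapped reads of the library, with 1 value per gene. Read numbers are unknown, and the relative depth of the libraries, read from the steps between low values, ran from 0.986 to 1.77 times that of control 1. The FPKM of most genes were slightly higher in CKOs, with a median log2 fold change of 0.18 over the 12695 genes tested and 77.9% of them positive. Median-ratio scaling, which divides each library by its typical ratio to the geometric mean of all libraries, brought these values to 0.0079 and 51.2%, so both scales are given below. Muscle fiber markers were high in every library, with a sum of 8470 to 13084 FPKM over 6 genes. Ttn was left out of that sum because it was listed at 0 in some libraries. Control 1 stood apart, with a fibroblast marker sum of 827 FPKM against 220 to 277 in the other controls and 292 to 490 in CKOs. Its leukocyte and adipocyte marker sums were 27.8 and 306 FPKM, against at most 13.8 and 170 in the other controls. Smyd1 itself was 32.9 to 47.1 FPKM in controls and 27.8 to 39.9 FPKM in CKOs, with a log2 fold change of -0.13 (limma, adjusted p = 0.545) that became -0.32 after scaling (limma, adjusted p = 0.0797). The values are per gene and not per exon, so they do not check the deletion.

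At an adjusted p below 0.05 in limma, 3 of the 8 genes were higher in CKOs and 0 were lower, against 2.02% and 0.268% of all genes tested. After median-ratio scaling 2 of the 8 were higher, against 0.764% of all genes. At an unadjusted p below 0.05, the FPKM as deposited gave 7 higher and 0 lower, against 18.1% and 1.76% of all genes, and 3 were higher after scaling, against 6.62%. The median log2 fold change of the 8 genes was 0.35 as deposited and 0.16 after scaling, beside the 0.18 and 0.0079 of all genes. All 8 values were positive on both scales, where 77.9% of all genes were positive as deposited and 51.2% after scaling. The 6 CKO values lay above all 6 control values for Sgcd, Sspn, Dag1 and Sgca as deposited, where 2.23% of all genes did so, and for Sgcd and Sspn after scaling, where 0.788% did.

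**Figure D1:**
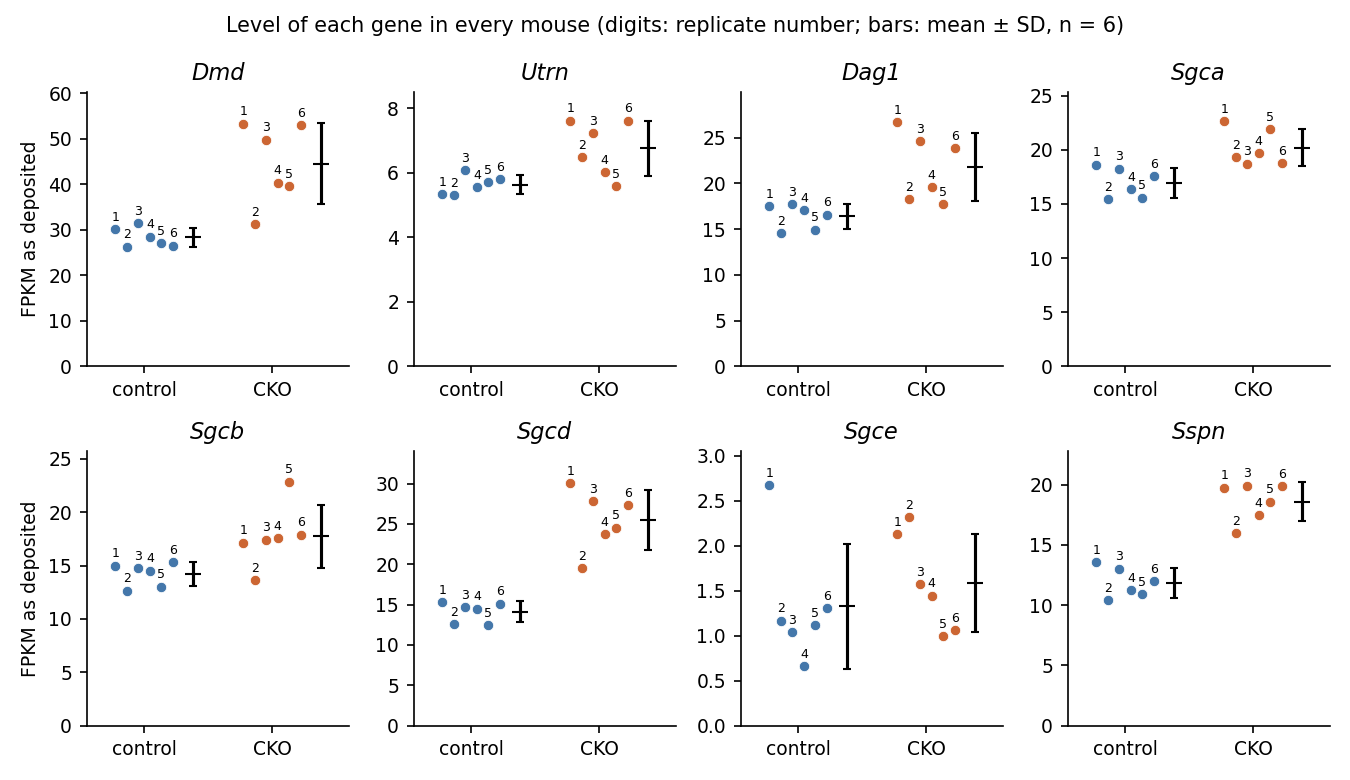
FPKM as deposited (vertical axes, each from 0) of the 8 genes in the 6 control and 6 CKO mice, 1 point per mouse with its replicate number, and the mean ± SD of each group (n = 6). Sgcd and Sspn separate the groups most widely relative to their spread, CKO 2 is the lowest CKO for Dmd, Sgcb, Sgcd and Sspn, and control 1 is far above the other controls for Sgce.

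The steady-state levels of the 8 genes in controls spanned from 28.3 FPKM for Dmd to 1.33 FPKM for Sgce. FPKM is a level per transcript length, so the genes can be set in an order, which in controls was Dmd, Sgca, Dag1, Sgcb, Sgcd, Sspn, Utrn and Sgce. Each gene was above the next in 6 of 6 control mice except for the neighbors Sgca and Dag1, in that order in 5 of 6, and Sgcb and Sgcd, in that order in 4 of 6. These neighbors did not differ beyond their spread in controls (exact paired permutation test over the signs of 6 mice, p = 0.125 and p = 0.5, where the other 5 neighbors gave 0.0312, the smallest value this test allows). In CKOs Sgcb was above Sgcd in 0 of 6 mice, and Sgca was above Dag1 in 3 of 6. The values sum all transcripts of a gene, so the full-length and short products of Dmd are not separated.

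The genes differ widely in size. In the GENCODE M21 annotation of GRCm38, Dmd covers 2257 kb (chrX:82948870-85206141, plus strand), Sgcd 1093 kb (chr11:46896253-47988969, minus strand) and Utrn 487 kb (chr10:12382188-12869365, minus strand). Sgce, Dag1 and Sspn cover 72.9, 59.3 and 33.6 kb, and Sgcb and Sgca 15 and 13.5 kb. The files carry no positions, and their build was mm9 per the labels, so these coordinates come only from the annotation.

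The set of RefSeq start sites used here, on GRCm38.p6, had entries for 7 of the 8 genes, Sgce being the exception. The sequences before the starts of the 3 genes that rose, and before that of Sgca as a muscle-specific member that did not pass the test, are given below so that they can be set beside each other. Capitals mark E-boxes (CANNTG) and the MCAT motif (CATTCC), bound by TEAD factors, each searched on both strands. Some forms of the E-box are bound by MYOD and related muscle factors, and the forms were not told apart here. For Sgcd, only the 53 bases outside an annotated exon are shown. The starts behind the windows printed for Sgcd (chr11:47379325) and Sspn (chr6:145934122) lie inside the GENCODE spans of these genes, not at their outer ends.
Dmd, chrX:82948620-82948869, plus strand: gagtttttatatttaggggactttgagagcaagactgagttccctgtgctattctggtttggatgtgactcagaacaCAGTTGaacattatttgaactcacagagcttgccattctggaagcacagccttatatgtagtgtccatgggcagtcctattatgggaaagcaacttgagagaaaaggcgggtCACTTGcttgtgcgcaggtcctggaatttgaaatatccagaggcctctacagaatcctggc
Sspn, chr6:145933872-145934121, plus strand: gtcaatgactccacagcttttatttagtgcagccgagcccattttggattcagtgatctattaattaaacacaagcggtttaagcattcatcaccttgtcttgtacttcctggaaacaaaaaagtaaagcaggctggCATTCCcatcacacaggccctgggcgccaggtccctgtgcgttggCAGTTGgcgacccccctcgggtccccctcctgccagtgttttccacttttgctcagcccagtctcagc
Sgcd, chr11:47379523-47379575, minus strand: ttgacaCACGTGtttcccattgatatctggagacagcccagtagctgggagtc
Sgca, chr11:94976328-94976577, minus strand: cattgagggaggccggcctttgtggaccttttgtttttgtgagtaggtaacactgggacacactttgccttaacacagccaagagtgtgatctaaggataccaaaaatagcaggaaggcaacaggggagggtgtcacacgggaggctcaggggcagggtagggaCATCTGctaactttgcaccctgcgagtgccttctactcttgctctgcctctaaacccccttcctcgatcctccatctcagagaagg
The set used held 2 starts each for Dmd and Sspn, and 1 window of each is printed. The printed window of 250 bases held 2 E-boxes for Dmd, 1 for Sspn and 1 for Sgca, and the other windows of Dmd (chrX:85048045-85048294) and Sspn (chr6:145931623-145931872) held 0. The window of Sgcd held 2, of which 1 lay inside the annotated exon that is not shown. An E-box was found in 66.2% of the 32851 RefSeq windows of this length. MCAT was found once before Sgcd and once before each of the 2 starts of Sspn, and not before the other 5 genes, where 12.6% of all windows held it. The match before Sgcd and that in the Sspn window not printed lay inside annotated exons, so the match printed for Sspn was the 1 outside an exon. Sequence matches are letters in a window and are not binding sites shown by these data.

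Dystrophin mRNA rose in CKO muscle, and its level varied more between CKO mice than between controls. Dmd was 30.2, 26.3, 31.5, 28.6, 27.0 and 26.6 FPKM in controls 1 to 6, and 53.4, 31.3, 49.9, 40.4, 39.6 and 53.0 FPKM in CKOs 1 to 6. The CKO values were above all control values except that of CKO 2, which lay just under control 3. The means were 28.3 ± 2.11 and 44.6 ± 8.89 FPKM (SD, n = 6), a log2 fold change of 0.63 with a standard error of 0.13 (limma, adjusted p = 0.0188). After median-ratio scaling the log2 fold change was 0.44, with a 95% interval of 0.21 to 0.67, and no longer passed the threshold (limma, adjusted p = 0.0573). The call was also lost without control 5, CKO 1, CKO 3 or CKO 6 (limma, adjusted p = 0.0533, adjusted p = 0.0565, adjusted p = 0.0522 and adjusted p = 0.0507). All genes higher then numbered 107, 88, 113 and 113, in place of 257. The coefficient of variation of the FPKM of Dmd was 7.45% in controls and 19.9% in CKOs.

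CKO 1, 3 and 6 had the highest Dmd of all mice, and these libraries also had the highest slow-fiber marker sums. The 7 markers of slow fibers, all of which passed the filter and none of which was at 0 throughout, summed to 142, 85.6 and 292 FPKM in CKO 1, 3 and 6. They summed to 26.6 to 33.2 FPKM in CKO 2, 4 and 5, and to 18.6 to 51.9 FPKM in controls. Myl3, the largest part of the sum at 27.1%, had a log2 fold change of -0.52 as deposited and -0.70 after scaling. The other 6 had positive values on both scales. The study found no significant difference in the share of type I fibers in this muscle. Markers of regenerating fibers, 4 genes, summed to 38.6, 31.0 and 49.6 FPKM in CKO 1, 3 and 6, to 15.9 to 22.7 FPKM in the other CKOs and to 5.99 to 17.6 FPKM in controls. CKO 1, 3 and 6 also had the highest levels of Utrn, Dag1, Sgcd and Sspn. Dmd in CKO 2, 4 and 5, with slow-fiber sums inside the control range, was 31.3, 40.4 and 39.6 FPKM. CKO 4 and 5 lay above every control, and CKO 2 lay just under control 3. The 4 satellite cell markers, none at 0 throughout, were low, but their sum separated the groups on both scales, at 1.44 to 1.99 FPKM in controls and 2.17 to 3.21 FPKM in CKOs as deposited. Cdh15, which made up 47.0% of that sum, had a log2 fold change of 0.12 as deposited and -0.05 after scaling. Taken 1 at a time, each of the 4 genes overlapped between the groups on both scales. The sum of 6 general muscle fiber markers, most of it Acta1 and Ckm, went the other way, with a median of 11067 FPKM in controls and 9266 FPKM in CKOs and overlapping groups. After scaling it ran from 11028 to 12355 in controls and from 7452 to 11066 in CKOs. Its 6 genes did not move together, as 3 had a positive log2 fold change as deposited and 2 after scaling. The part of fiber type and of other cells in the differences of the 8 genes was not tested.

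Utrophin, the stand-in for dystrophin, did not pass the adjusted threshold. Utrn ran from 5.30 to 6.09 FPKM in controls (median 5.64) and from 5.58 to 7.61 FPKM in CKOs (median 6.85). CKO 4 and 5 lay inside the control range. The means were 5.63 ± 0.30 and 6.75 ± 0.86 FPKM (SD, n = 6), with a log2 fold change of 0.25 (limma, adjusted p = 0.188). On the median-ratio scale the log2 fold change was 0.07, with a 95% interval of -0.15 to 0.28 (limma, adjusted p = 0.839), so a rise of the size seen for Sgcd or Sspn on that scale lies outside the interval.

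Dystroglycan, the receptor for laminin, was higher in every CKO as deposited without passing the adjusted threshold. Dag1 ran from 14.5 to 17.7 FPKM in controls (median 16.8) and from 17.7 to 26.7 FPKM in CKOs (median 21.7). The groups met almost exactly, with control 3 at 17.72 and CKO 5 at 17.73 FPKM, and they overlapped after scaling. The log2 fold change was 0.39 with a standard error of 0.11 (limma, adjusted p = 0.0831), and 0.21 after scaling (limma, adjusted p = 0.356). The call turned on single libraries. Without control 1 or without CKO 5 it passed the threshold (limma, adjusted p = 0.0423 and adjusted p = 0.0476). The log2 fold change of Dag1 was then 0.41 and 0.45, and all genes higher numbered 1075 and 319 in place of 257.

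Of the sarcoglycans, δ-sarcoglycan rose most among all 8 genes. Sgcd was 15.3, 12.5, 14.7, 14.5, 12.5 and 15.1 FPKM in controls 1 to 6, and 30.03, 19.5, 27.8, 23.8, 24.5 and 27.3 FPKM in CKOs 1 to 6. The lowest CKO was well above the highest control, both as deposited and after scaling, where controls ran from 13.7 to 17.0 and CKOs from 19.0 to 26.1. The means were 14.1 ± 1.27 and 25.5 ± 3.72 FPKM (SD, n = 6), and the log2 fold change was 0.84 with a standard error of 0.11 (limma, adjusted p = 0.00233). It was 0.65 after scaling (limma, adjusted p = 0.00279), or 1.57-fold. By its p it ranked 8 of 12695 genes as deposited and 18 after scaling.

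The α- and β-sarcoglycan genes, whose products stand in the same subcomplex, did not pass the adjusted threshold. Sgca, which is expressed almost only in striated muscle, ran from 15.4 to 18.6 FPKM in controls (median 17.0) and from 18.7 to 22.7 FPKM in CKOs (median 19.5). Its groups did not overlap as deposited, control 1 and CKO 3 being the neighbors at 18.63 and 18.71 FPKM, but did after scaling. The log2 fold change was 0.25 as deposited (limma, adjusted p = 0.147) and 0.06 after scaling, with a 95% interval of -0.10 to 0.22. Sgcb ran from 12.6 to 15.3 FPKM in controls (median 14.6) and from 13.6 to 22.9 FPKM in CKOs (median 17.5), and its groups overlapped, with CKO 2 inside the control range. CKO 5, which was among the lower CKOs for Dmd and Dag1, had the highest Sgcb. The log2 fold change of Sgcb was 0.31 (limma, adjusted p = 0.154), and 0.12 after scaling, with a 95% interval of -0.10 to 0.34.

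The ε-sarcoglycan gene, which is also used in many tissues outside muscle, was the lowest and most variable of the 8. Sgce ran from 0.66 to 2.67 FPKM in controls (median 1.14) and from 0.99 to 2.32 FPKM in CKOs (median 1.51). The highest value was that of control 1, the library with the fibroblast marker sum of 827 FPKM, and the other controls reached at most 1.30 FPKM. The log2 fold change was 0.30 with a standard error of 0.27 (limma, adjusted p = 0.559), and 0.12 after scaling (limma, adjusted p = 0.891). Without control 1 it was 0.51 as deposited (limma, adjusted p = 0.154). The part of other cell types in the level of Sgce was not tested.

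Sarcospan, which sits with the sarcoglycans in the membrane, rose, and every CKO was above every control. Sspn was 13.6, 10.4, 13.0, 11.2, 10.9 and 12.01 FPKM in controls 1 to 6, and 19.8, 15.97, 19.9, 17.5, 18.6 and 19.9 FPKM in CKOs 1 to 6. The groups did not overlap on either scale. The means were 11.9 ± 1.26 and 18.6 ± 1.61 FPKM (SD, n = 6), with a log2 fold change of 0.65 and a standard error of 0.10 (limma, adjusted p = 0.00333). After scaling the log2 fold change was 0.46 (limma, adjusted p = 0.00528), and the coefficient of variation in CKOs was 5.93%, the smallest of the 8 genes. CKO 1, 3 and 6 were again the highest, but the spread was narrower than for Dmd, and CKO 2 was the lowest CKO.

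**Figure D2:**
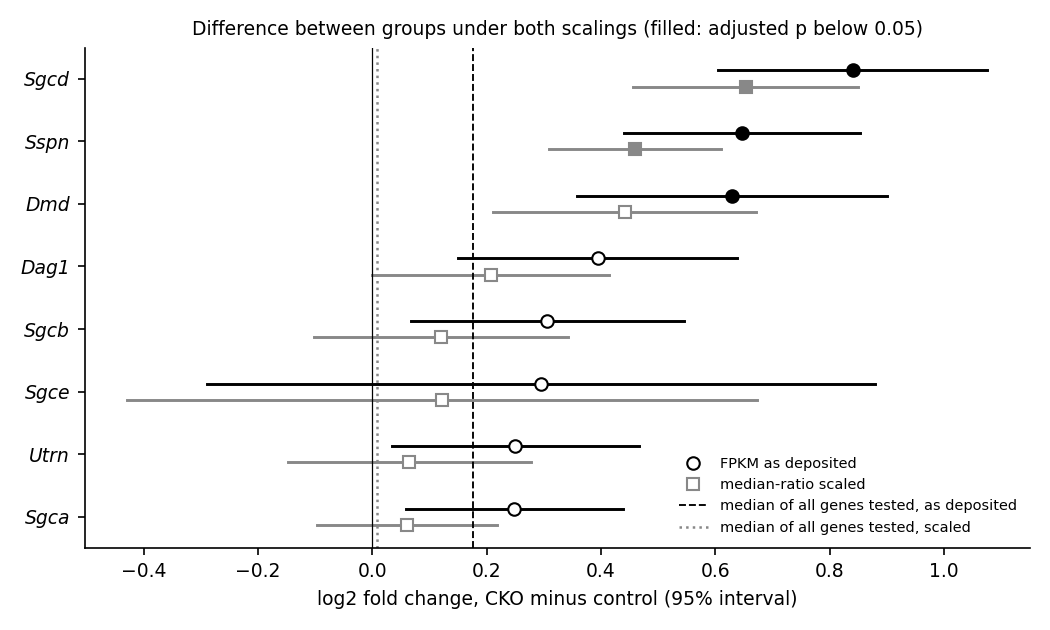
Log2 fold change of each gene, CKO minus control (horizontal axis), with its 95% interval, for FPKM as deposited (circles) and after median-ratio scaling (squares), filled where the adjusted p is below 0.05. The dashed and dotted lines mark the medians over the 12695 genes tested, 0.18 and 0.0079, and the intervals of Sgcd, Sspn and Dmd lie above the line of their own scale.

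**Figure D3:**
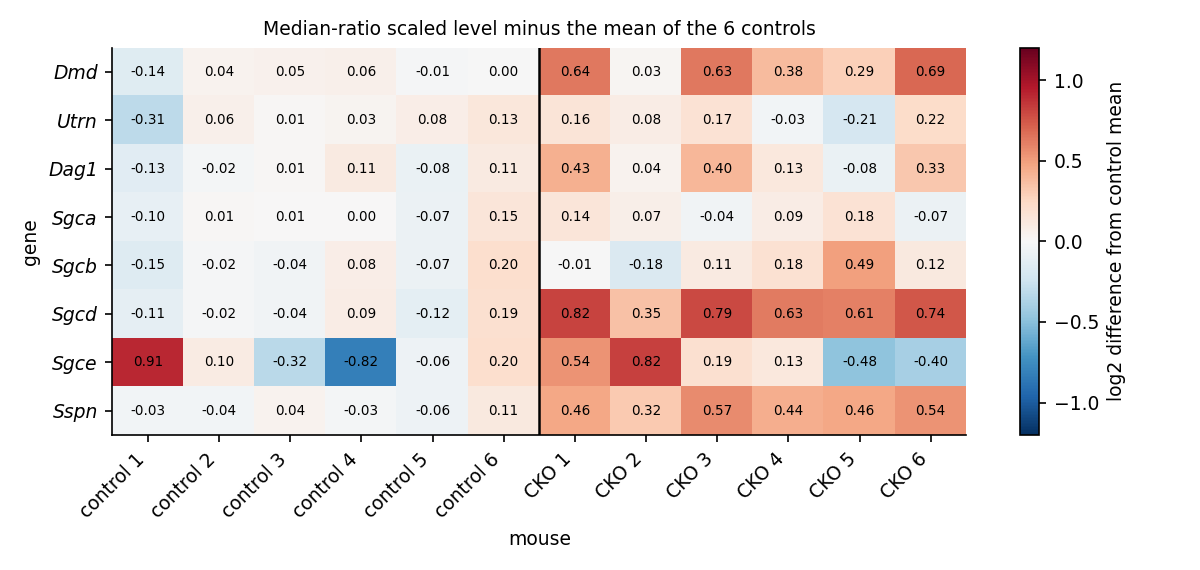
Log2 difference of each gene (rows) in each mouse (columns) from the mean of the 6 controls, after median-ratio scaling, with red for higher and blue for lower. Sgcd and Sspn are above the control mean in all 6 CKOs, Dmd is near it in CKO 2, and Sgce varies within both groups.

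The proteins assemble into a complex, so each gene was also compared with Dmd inside the same library, a measure that does not change with the scaling between libraries. Relative to Dmd, Utrn, Dag1 and Sgca fell and Sgcd rose, by an exact two-sided permutation test over 924 assignments, adjusted over 7 ratios. The log2 ratio of Utrn to Dmd ran from -2.48 to -2.18 in controls and from -2.80 to -2.26 in CKOs, with means of -2.31 and -2.69 (n = 6, exact permutation p = 0.0108, adjusted p = 0.0303). CKO 2, at -2.26, was inside the control range and the other 5 CKOs were below it. The mean log2 ratio of Dag1 to Dmd went from -0.79 to -1.02 (n = 6, exact permutation p = 0.0108, adjusted p = 0.0303). That of Sgca to Dmd went from -0.74 to -1.12 (n = 6, exact permutation p = 0.026, adjusted p = 0.0455). In linear terms there were 0.60 Sgca per Dmd in controls and 0.461 in CKOs, on the per-length scale of FPKM.

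Sgcd was the only one of the 7 to rise relative to Dmd under this test, from a mean log2 ratio of -1.003 to -0.79 (n = 6, exact permutation p = 0.013, adjusted p = 0.0303). The ratios ran from -1.11 to -0.81 in controls and from -0.95 to -0.68 in CKOs, so the groups overlapped. The ratio of Sspn to Dmd had a mean of -1.25 in controls and -1.24 in CKOs, a difference of 0.02 (n = 6, exact permutation p = 0.836), whose sign depended on single libraries and on the pseudocount. The ratio of Sgcb to Dmd differed by -0.32 and did not pass (n = 6, exact permutation p = 0.0563, adjusted p = 0.0788). Without CKO 5 it did, the difference being -0.43 (exact permutation p = 0.00216). The ratio of Sgce to Dmd differed by -0.33 (n = 6, exact permutation p = 0.361). All 7 ratios share the Dmd values, so they are not independent of each other.

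**Figure D4:**
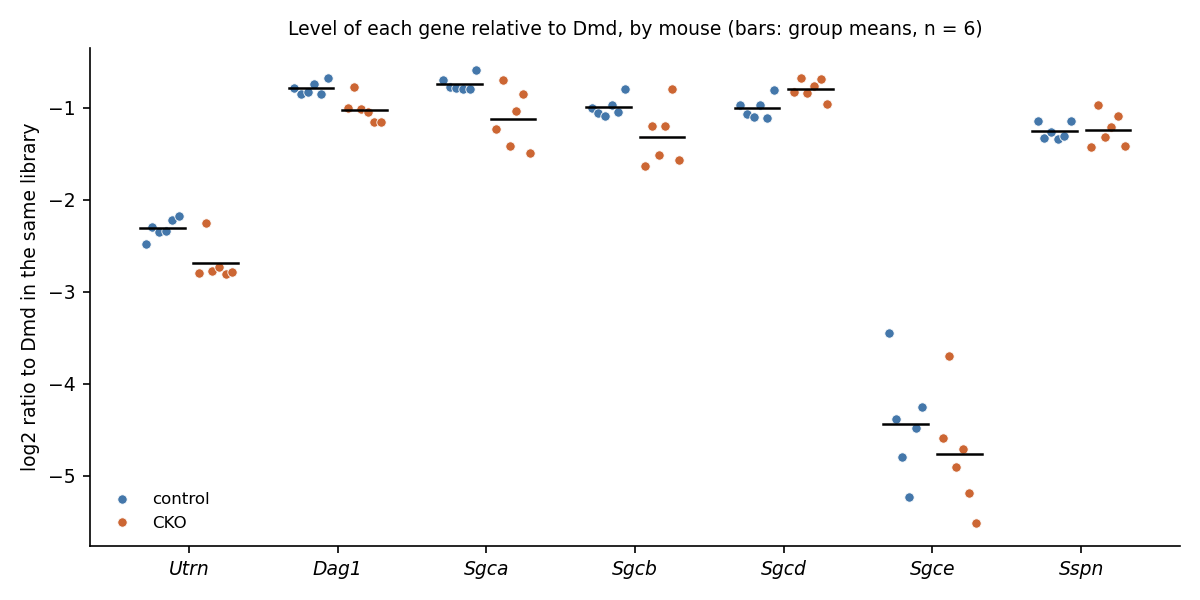
Log2 ratio of each of the 7 other genes to Dmd in the same library (vertical axis), 1 point per mouse, with the mean of each group (n = 6) as a bar. CKO 2 is the CKO point that stays at the control level for Utrn, at -2.26, and the Sgcd ratios of CKOs are shifted upward, from a mean of -1.003 to -0.79.

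Across the 12 mice, the gene most like Sgcd among all genes tested was Sspn, and the gene most like Sspn was Sgcd, with a Pearson r of 0.976 on median-ratio scaled log2 values. Part of this likeness is the difference between the groups that both genes share, and within the groups r was 0.739 over the 6 controls and 0.88 over the 6 CKOs. Dmd was like Sgcd within CKOs (r = 0.963) and less so within controls (r = 0.429), where it hardly varied. Sgca, Sgcb and Sgcd followed each other across controls, with r = 0.924 for Sgca and Sgcb, 0.907 for Sgca and Sgcd and 0.968 for Sgcb and Sgcd. Over the CKOs the same pairs had r = 0.293, -0.273 and 0.253. These values are descriptions over 6 mice that share a library and a scaling factor for each point, and no difference between them was tested.

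The other nearest genes by the same measure were Sh3pxd2a and Egf for Dmd (r = 0.956 and 0.95), Lrrn1 and Limch1 for Dag1 (r = 0.955 and 0.931), and Gm590 and C130046K22Rik for Utrn (r = 0.947 and 0.925). For Sgca they were Dusp3 and Dhx33 (r = 0.882 and 0.87), and for Sgcb Ifitm5 and Ctbp1 (r = 0.934 and 0.883). Ppp1r9a stood next to Sspn for Sgcd (r = 0.94) and Ttc9 next to Sgcd for Sspn (r = 0.939). For Sgce they were Cd34, a marker of stromal and blood vessel cells, and Sdcbp (r = 0.912 and 0.91). Over the 6 controls alone, r was 0.215 for Sgcd and Ppp1r9a and -0.321 for Sspn and Ttc9. Over the 6 CKOs it was 0.919 and 0.981. The other pairs named here had r of 0.618 or more over the 6 controls.

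Under the membrane, dystrophin also holds syntrophins and dystrobrevins, which anchor signaling proteins such as nNOS (Nos1). Of 9 such genes, 7 passed the filter, and by limma 0 were higher and 1 was lower at the adjusted threshold, against 2.02% and 0.268% of all genes, with 1 and 2 at the unadjusted one, against 18.1% and 1.76%. Their median log2 fold change was 0.21 as deposited and 0.03 after scaling. The 1 lower gene was Sntb1 (β1-syntrophin), which ran from 0.83 to 1.33 FPKM in controls and from 0.31 to 0.79 FPKM in CKOs, with no overlap on either scale. Such separation downward was seen for 0.189% of all genes as deposited and 0.740% after scaling. The log2 fold change of Sntb1 was -0.96 (limma, adjusted p = 0.034), and -1.12 after scaling (limma, adjusted p = 0.0133), where 0.709% of all genes were lower. Its call as deposited held in only 3 of the 12 fits that left out 1 library, with adjusted p up to 0.0772 by limma, while its log2 fold change stayed between -1.07 and -0.85. Nos1, at 6.43 ± 2.59 FPKM in controls and 3.25 ± 1.19 FPKM in CKOs (SD, n = 6), had a log2 fold change of -0.93 (limma, adjusted p = 0.0693). After scaling it was -1.12 (limma, adjusted p = 0.0731). Without control 1 or without CKO 5 Nos1 passed as deposited (limma, adjusted p = 0.0192 and adjusted p = 0.0266). All genes lower then numbered 69 and 57, in place of 34. Dtna (α-dystrobrevin) had a log2 fold change of 0.21 (limma, adjusted p = 0.236), and 0.03 after scaling (limma, adjusted p = 0.919).

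Outside the fiber, dystroglycan and the α7β1 integrin, the other laminin receptor of muscle, meet the basal lamina. Of 14 genes for laminin chains, other ligands and this integrin, 13 were tested, and 3 were higher and 0 lower at the adjusted threshold by limma on both scales. That compares with 2.02% of all genes higher as deposited and 0.764% after scaling. At the unadjusted threshold 7 were higher and 0 lower as deposited, and 4 were higher after scaling, against 18.1% and 6.62% of all genes higher. The list's median log2 fold change was 0.36 as deposited and 0.17 after scaling, near the 0.35 and 0.16 of the 8 genes of the complex. Lamb2 (laminin β2, which is concentrated at the neuromuscular junction) ran from 8.35 to 10.5 FPKM in controls and from 12.1 to 18.1 FPKM in CKOs (log2 fold change 0.65, limma, adjusted p = 0.00733). Itgb1 (integrin β1) had means of 37.0 ± 7.87 and 60.0 ± 8.46 FPKM (SD, n = 6) and a log2 fold change of 0.71 (limma, adjusted p = 0.0133). Itga7 (integrin α7) had means of 4.58 ± 1.39 and 9.38 ± 2.43 FPKM (SD, n = 6) and a log2 fold change of 1.03 (limma, adjusted p = 0.0149). The groups did not overlap for any of the 3 on either scale, although the highest control and the lowest CKO were close for Itgb1 (51.415 and 51.418 FPKM) and for Itga7 (6.81 and 6.88 FPKM). Such separation upward was seen for 2.23% of all genes as deposited and 0.788% after scaling.

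Dystroglycan binds laminin only once its sugar chains have been built by a series of enzymes. All 17 genes listed for this pathway were tested, and at the adjusted threshold 0 were higher and 0 lower by limma. At the unadjusted threshold 7 were higher and 0 lower as deposited, and 0 and 0 after scaling, where 18.1% and 6.62% of all genes were higher. The smallest p belonged to Pomgnt1, which adds a sugar to O-mannose and was 3.798 ± 0.15 FPKM in controls and 4.997 ± 0.57 FPKM in CKOs (SD, n = 6), with a log2 fold change of 0.38 (limma, adjusted p = 0.0582). After scaling the log2 fold change was 0.20 (limma, adjusted p = 0.417) and the groups overlapped. As deposited, Pomgnt1 passed without control 1, without CKO 2 or without CKO 5 (limma, adjusted p = 0.0366, adjusted p = 0.0438 and adjusted p = 0.0466). All genes higher then numbered 1075, 302 and 319, in place of 257. B3galnt2 and Pomgnt2 followed, with log2 fold changes of 0.32 and 0.36 (limma, adjusted p = 0.207 and adjusted p = 0.208). After scaling these were 0.13 and 0.19 (limma, adjusted p = 0.637 and adjusted p = 0.610).

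Of 11 genes for cytoskeletal proteins that bind dystrophin or its partners, such as actin, ankyrins, plectin and synemin, 10 were tested. None passed the adjusted or the unadjusted threshold by limma on either scale. Their median log2 fold change was 0.08 as deposited and -0.11 after scaling, so the list lay below the median of all genes on both scales. The smallest p values were those of Krt19, at under 0.21 FPKM in every mouse, Ank3 and Flnc, with log2 fold changes of 0.61, 0.20 and 0.22 (limma, adjusted p = 0.344, adjusted p = 0.451 and adjusted p = 0.598). Actg1 was only 0.83 FPKM in controls, a level made uncertain because reads that map to several places had been discarded.

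**Figure D5:**
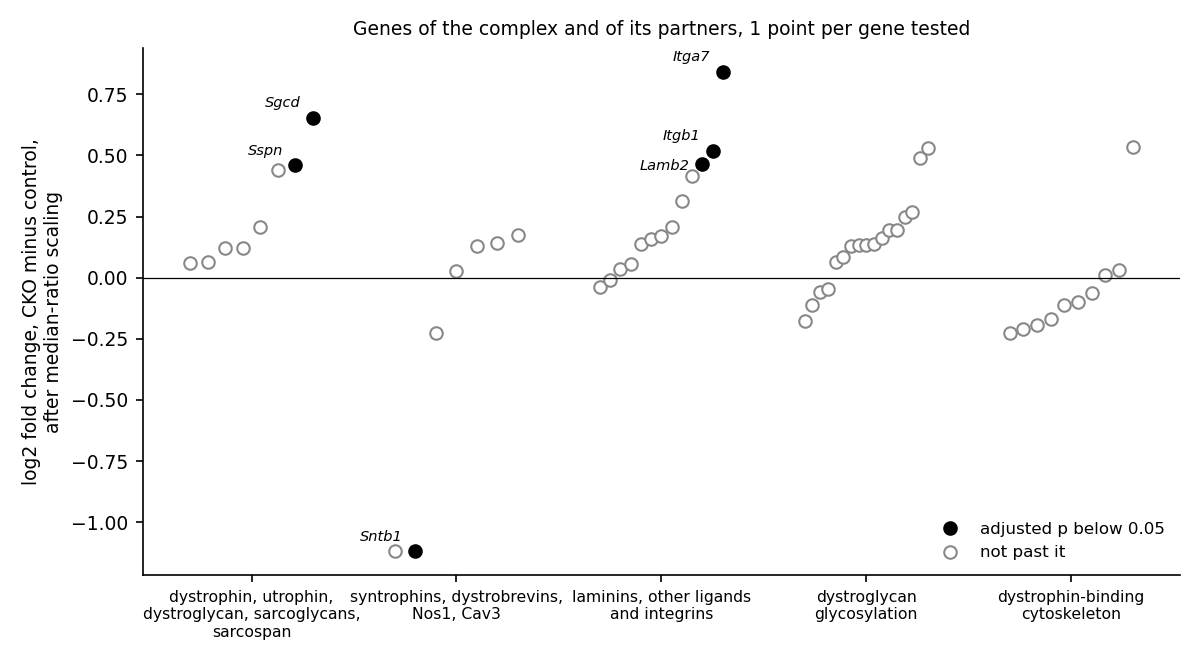
Log2 fold change after median-ratio scaling (vertical axis) of the genes tested, grouped as the 8 genes of the complex, its cytoplasmic partners, the ligands and integrins, the glycosylation genes and the cytoskeletal partners. Filled points, named in the plot, have an adjusted p below 0.05 on this scale: Sgcd and Sspn at 0.65 and 0.46, Sntb1 at -1.12, and Lamb2, Itgb1 and Itga7 at 0.47, 0.52 and 0.84.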

How the data were processed

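RNA of the tibialis anterior was measured in 12 mice, 6 controls and 6 CKOs, grouped by the genotype in the labels. The authors depleted ribosomal RNA, aligned reads with TopHat2 2.0.10 to mm9, discarded reads mapping to several places and made the deposited FPKM values with Cufflinks 2.1.1, per the labels and the study's methods. The authors' own test used DESeq on counts, which were not used here. Each file held 23950 rows, and 27 rows with a date in place of a symbol were left out. Depth in reads is unknown, so no counting interval is given.

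Groups were compared with limma 3.58.1 (R 4.3.3; prior variance following intensity) on log2(FPKM + 0.1). A gene was tested if 6 or more libraries had 0.1 FPKM or more, with Benjamini-Hochberg adjustment over all genes tested. A fold change on this scale understates the change of low genes. Nothing says that mice were from separate litters, and p-values measure the spread between these 12 mice. Ratios to Dmd were compared by an exact permutation test. The 8 genes, the lists of partners and the markers were chosen with earlier results of these data known. The text names the 8 genes, Smyd1, from each list the 3 genes with the smallest p and any gene past the adjusted threshold, and for each of the 8 genes the 2 genes with the highest correlation. A few genes named by this rule are not reported here. Actg1 was named after its value was seen, because of its discarded reads. Some marker genes were named to describe their sums. Alternatives were median-ratio scaling, quantile normalization, 1 as the pseudocount, no filter or one at 1 FPKM, the replicate number as a block, a spline correction for transcript length and GC content, that correction with the block, limma without the trend, sample weights, and leaving out each library in turn. The code was tested on simulated data. Sequences before gene starts came from RefSeq (GRCm38.p6) and spans from GENCODE M21 (GRCm38).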

Additional observations from a re-analysis of the deposited data

Results flagged for a closer look

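Each gene and each ratio to Dmd was checked in each group of 6 for a mouse whose gap to the nearest other mouse took up so much of the group's range that it passed Dixon's critical value for 6 values, a limit that chance passes in about 1 of 20 groups. Of 46 groups checked, on both scales, 3 passed it. Sgce was 2.67 FPKM in control 1, against 0.66 to 1.30 FPKM in the other controls. Utrn after median-ratio scaling was 4.78 in control 1, against 5.98 to 6.51 in the other controls, while its FPKM as deposited was 5.33 and inside their range. Control 1 had the largest scaling factor of the controls, 1.11. The log2 ratio of Utrn to Dmd was -2.26 in CKO 2, against -2.80 to -2.73 in the other CKOs, and the Dmd of CKO 2 was the lowest of the CKOs at 31.3 FPKM.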

How the results depend on the processing

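Sgcd and Sspn stayed past the adjusted threshold in all 10 alternative fits and in all 12 fits without 1 library, with log2 fold changes of 0.65 to 0.91 and 0.46 to 0.70. Dmd lost its call with median-ratio scaling and with the block plus the length and GC correction (limma, adjusted p = 0.0573 and adjusted p = 0.0606), besides the 4 fits without 1 library given above. Of the 8 genes, those higher at the adjusted threshold numbered 3, and 6 with sample weights, where Dag1, Sgca and Sgcb also passed (limma, adjusted p = 0.0129, adjusted p = 0.0425 and adjusted p = 0.0496). All genes higher then numbered 1400 in place of 257, and 1075 without control 1. Those higher at the unadjusted threshold numbered 7, but 3 with median-ratio scaling or the length and GC correction and 4 with quantile normalization or the block plus the correction. All genes higher at that threshold numbered 841 with median-ratio scaling, 810 with quantile normalization or the correction and 832 with the block plus correction, in place of 2300. Without 1 library the 2 counts among the 8 genes were 2 to 4 and 6 to 8. Those over all genes were 88 to 1075 and 1724 to 3416. In any fit 0 of the 8 were lower. The length and GC correction has an intercept per library, which takes out any shift of that library.

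The mice with the same replicate number were not paired by the labels, and their deviations correlated at -0.086 to 0.164. Under the replicate block the 3 calls among the 8 genes held, and the ratios of Utrn, Dag1, Sgca and Sgcd to Dmd, -0.38, -0.23, -0.38 and 0.21, no longer passed an exact sign-flip permutation test over 6 pairs (p = 0.0625, p = 0.0625, p = 0.09375 and p = 0.0625). The Sspn ratio changed sign with a pseudocount of 1 (-0.0042) and ran from -0.036 to 0.056 without 1 library, and the Sgcb ratio from -0.43 to -0.26. Ank3 and Flnc changed sign with the length and GC correction, with or without the block (-0.017 and -0.0027).

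Among partners, genes higher at the adjusted threshold numbered 7 in place of 3 for the ligands with sample weights, and 2 with sample weights and 1 with the 1 FPKM filter in place of 0 for glycosylation. All genes higher numbered 1400 with sample weights and 277 of 7938 with the 1 FPKM filter, in place of 257 of 12695. Cytoplasmic partners lower at the adjusted threshold numbered 0 with either other filter, and 2 with sample weights or the correction, in place of 1. All genes lower numbered 28 with the 1 FPKM filter, 23 with no filter, 115 with sample weights and 90 with the correction, in place of 34. Sntb1 was not tested with the 1 FPKM filter, had an adjusted p of 0.0591 by limma with no filter, and a log2 fold change of -0.44 with a pseudocount of 1. Cytoplasmic partners higher at the unadjusted threshold, in place of 1, numbered 2 with the block or sample weights and 0 with median-ratio scaling, quantile normalization, either correction or no trend. All genes higher numbered 2442 with the block, 3704 with sample weights and 2296 with no trend, in place of 2300. With the 1 FPKM filter 1 cytoplasmic partner was lower at the unadjusted threshold in place of 2, and all genes lower numbered 161 in place of 224. Ligands at the unadjusted threshold numbered 4 with median-ratio scaling or the block plus correction and 3 with the correction alone, in place of 7. Glycosylation genes numbered 0 under each of these and quantile normalization. The counts of all genes higher under these fits are given above. With the block plus correction 2 cytoskeletal genes were lower at the unadjusted threshold, where all genes lower numbered 1018 in place of 224. Without 1 library, the cytoplasmic partners numbered 0 to 3 higher unadjusted and 0 to 2 lower adjusted, glycosylation genes 0 to 1 adjusted and 2 to 8 unadjusted, ligands 3 to 7, and cytoskeletal genes 0 to 2. All genes then numbered 88 to 1075 higher and 18 to 69 lower adjusted, and 1724 to 3416 higher unadjusted. The causes were not tested. The unknown depth limits the low genes most, Sgce and Sntb1.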
